A study of Oryza sativa with 60 samples.

Results

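Pseudouridine (Ψ) sites that lie between 2 guanines, called GΨG sites here, were described across 12 rice tissues. They were taken from a deposited list of 9126 Ψ sites by their letters and place alone. A site was included when it lay within the span of exactly 1 gene on its own chromosome and strand, when that gene had an identifier of the Os kind, and when the letters before and after the modified base were both G. These conditions left 1153 GΨG sites in 1050 genes, which is 14.19% of the 8124 listed sites that lie in exactly 1 such gene. The whole list holds 1258 sites with these neighbours, and those left out lie in no gene (92), in more than 1 gene (5) or in a gene with another kind of identifier (8). None of the measured values was used to choose the sites.

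All samples came from polyadenylated RNA of rice of the cultivar Nipponbare. The 12 groups were plumule and radicle, the first shoot and root of the germinating seed, each in the dark and in the light, whole seedlings at 8 days and at 2 weeks, then panicle, straw and flag leaf at heading, and at 10 days after anthesis (DAA) endosperm, embryo and again flag leaf. Each group had 2 input libraries and 3 libraries treated with bisulfite, 60 samples in all. The authors summed the replicates of a group before the fraction was calculated, so each Ψ fraction is 1 value per site and pool, with no replicate error, and the number of reads behind it is unknown here. In radicle in the light, expression library 1 stood apart from library 2 and resembled endosperm, so the main difference is also given without that pool.

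Ψ is an isomer of uridine in which the base is joined to the sugar through carbon in place of nitrogen. It is made after transcription by pseudouridine synthases, some of which find their targets alone while others are led by guide RNAs of the H/ACA type. In yeast and mammals, the synthase Pus4 (TRUB1) favours a uridine with a uridine before it and a cytidine after it, and Pus7 favours a uridine followed by adenosine, so neither of these preferred contexts places G on both sides. In bisulfite-induced deletion sequencing (BID-seq), bisulfite adds to Ψ and reverse transcriptase skips the adduct, which leaves a gap in the read. A lone U between 2 Gs leaves no doubt about which U was skipped, whereas a gap in a run of U can be aligned at any of them.

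The files give each site with 7 letters in the DNA alphabet, the modified base standing as the T at letter 4. The 1153 sites held 169 of the 256 different 7-letter sequences that are possible around GTG. The 5 held by most sites are shown because together they cover 209 sites (18.13%). Capitals mark the modified T and the G on each side of it, and all are written 5′ to 3′.
held by 54 sites: cgGTGgg
held by 44 sites: ggGTGgg
held by 39 sites: ccGTGgg
also held by 36 sites: gcGTGgg
again held by 36 sites: ggGTGta

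The mean fractions of these 5 sequences lay close together, at 8.30% for cgGTGgg, 8.94% for ggGTGgg, 6.66% for ccGTGgg, 6.53% for gcGTGgg and 6.61% for ggGTGta. The SD over the sites of a sequence lay between 2.29 and 6.97 percentage points. The other end is shown by the 5 sequences with the highest mean fraction among those held by at least 5 sites.
26.8% over 6 sites: tgGTGag
25.2% over 8 sites: agGTGag
17.1% over 13 sites: caGTGgg
16.5% over 15 sites: gaGTGgg
15.8% over 7 sites: aaGTGgc

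The first pair of these end in the letters GTGAG, and the SD over their sites was large, 29.9 percentage points for the first and 16.3 for the next. The other 3 have A just before the capitals. None of the sites that hold the first 3 sequences passed the authors' filter in 5 or more pools.

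GΨG sites were the second most common kind in the list, after the 1204 sites between C and C, but they were weakly modified. In every pool their mean fraction was lower than that of the other 6971 sites. It was lowest in seedling at 2 weeks, 8.95% for GΨG sites against 13.4% for the other sites, and highest in radicle in the dark, 12.4% against 16.2%. In plumule the mean was 9.62% against 14.0% in the dark and 8.98% against 14.0% in the light. Straw at heading had the next highest mean of GΨG sites, 11.2%, against 14.8% for other sites, and in endosperm the means were 9.54% for GΨG sites and 15.0% for other sites. Averaged over the 12 pools, GΨG sites stood at 10.1% and other sites at 14.5%, a difference of -4.41 ± 0.52 percentage points (SD, n = 12 pools). The difference lay between -5.42 and -3.59 in single pools, and a two-sided exact sign-flip permutation test over pools gave p = 0.000488, the smallest it can give with 12 pools, or 0.000651 after adjustment over the 12 tests made. The pools share 1 list of sites, so this p measures only how evenly the difference recurs from pool to pool.

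**Figure D1:**
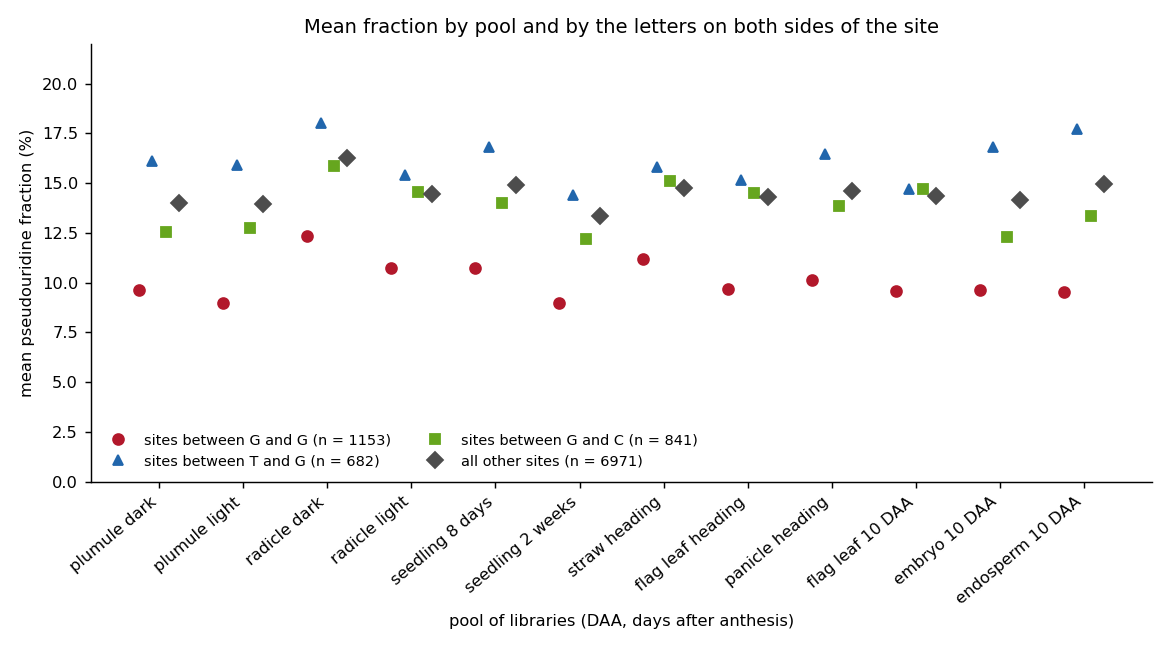
Mean Ψ fraction (vertical axis, %) in each of the 12 pools (horizontal axis) for sites between G and G, between T and G, between G and C, and all other sites, 1 point per kind and pool. The points for sites between G and G lie between 8.95% and 12.4% and are the lowest of the 4 kinds in every pool.

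Of the kinds of site that share 1 of the 2 neighbours, TΨG and GΨC sites were compared in every pool, and both were higher. Over pools GΨG sites averaged 10.1%, against 16.1% for the 682 TΨG sites, which have the same letter after the modified base, and the difference was -6.02 ± 1.08 points (SD, n = 12 pools; range -8.18 to -4.63; exact sign-flip permutation p = 0.000488, adjusted 0.000651). Within the genes that hold a GΨG and a TΨG site, 71 to 78 of them in a pool, the difference shrank to -2.82 points and was 0.46 in radicle in the light. Against the 841 GΨC sites, which have the same letter before it and averaged 13.8%, the difference was -3.70 ± 0.70 points (range -5.09 to -2.65; same p). GΨG sites were not the lowest kind of all. Of the 16 pairs of neighbours, 5 or 6 had a lower mean and 9 or 10 a higher mean than GΨG in each pool. Over their site means GΨG sites averaged 10.3%. Among further kinds that share a neighbour, AΨG (6.51%) and GΨT sites (6.60%) averaged less, and CΨG (16.1%) and GΨA sites (15.4%) averaged more. The median of GΨA sites was lower, 5.38% against 7.64% for GΨG sites. TΨC sites, which share no neighbour, averaged 24.3%.

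The lower mean went with few strongly modified sites rather than with more sites at 0. The share of GΨG sites at 20% or more was 12.3% over the 12 pools, against 24.8% of other sites, a difference of -12.5 ± 1.31 points (SD, n = 12 pools; lower in 12 of 12 pools; exact sign-flip permutation p = 0.000488, adjusted 0.000651). In radicle in the dark 18.8% of GΨG sites reached 20%, against 29.3% of other sites, and in seedling at 2 weeks 9.36% against 21.8%. Fractions of exactly 0 were given for 11.1% (straw) to 23.1% (embryo) of the GΨG sites in a pool, against 18.1% to 25.0% of other sites, and in every pool the share was lower among GΨG sites. Sites at 50% or more numbered 17 to 33 among the GΨG sites of a pool, or 1.50% to 2.92%.

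For each site the mean over its pools was taken as well. The median of these means was 7.64% over GΨG sites, with quartiles of 4.92% and 12.1%, against 11.1% over other sites, with quartiles of 5.84% and 18.8%. GΨG sites were thus packed into a narrow band: 744 of them (64.5%) had a mean under 10%, against 45.2% of other sites, and only 111 (9.63%) reached 20%, against 22.2%. At the low end the order turned, and 10% of GΨG sites had a mean under 3.46%, while 10% of other sites had one under 2.51%. Only 12 GΨG sites (1.04%) had a mean of 50% or more.

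**Figure D2:**
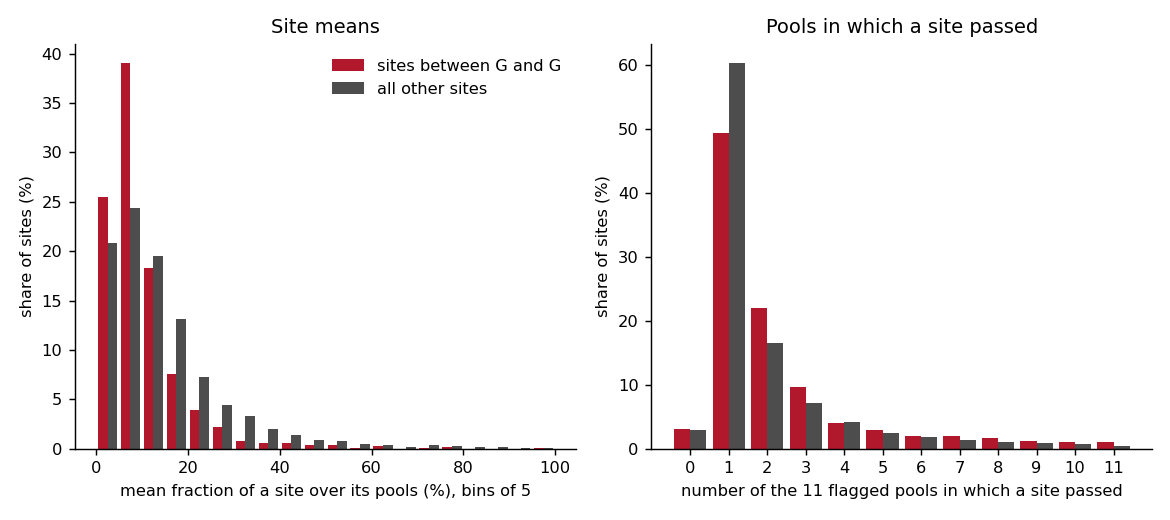
Left, share of sites (%) by the mean fraction of a site over its pools, in bins of 5 percentage points. Right, share of sites (%) by the number of the 11 pools with a flag in which the site passed the authors' filter; sites between G and G stand left of all other sites, and 49.3% of them passed in exactly 1 pool against 60.2% of other sites.

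For 11 of the pools the files also say whether a site passed the authors' filter, which rests on a p-value; plumule in the dark has no such flag. Of the 1153 GΨG sites 1118 passed in at least 1 pool, where 97.0% of all 8124 sites did, and 35 (3.04%) passed in none of the 11. Passing in a given pool was somewhat more frequent among GΨG sites, 20.5% of sites on average over the 11 pools against 17.7% of other sites. The difference of 2.86 ± 1.90 points (SD, n = 11 pools) was positive in 10 of 11 pools (exact sign-flip permutation p = 0.00293, adjusted 0.0032). Over sites whose 7 letters occur only 1 time in the list it was positive in 8 of 11 pools and did not pass (same exact test, adjusted p = 0.0703). The exception was plumule in the light, with 14.8% of GΨG sites and 15.3% of other sites, as of all sites (15.3%). Among the sites in the most weakly expressed host genes, the lowest of 4 equal groups by TPM, the difference was 1.37 points and no longer passed (same exact test, adjusted p = 0.115), while in the other 3 groups it was 4.26, 4.598 and 2.87 points. Radicle in the dark had most passes, 363 GΨG sites or 31.5%, where 27.8% of all sites passed, and endosperm had fewest, 137 or 11.9%, where 11.7% of all sites passed. In straw 24.7% of GΨG sites passed beside 19.2% of all sites, and in radicle in the light 23.2% beside 21.2%. The shares were 22.7% beside 20.3% in embryo, 21.4% beside 17.9% in flag leaf at heading and 21.2% beside 18.4% in flag leaf at 10 DAA. Seedlings had 13.4% beside 11.5% at 8 days and 21.3% beside 19.0% at 2 weeks, and panicle had 19.5% beside 16.7%.

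Passes were also spread over more pools. Among GΨG sites 569 passed in exactly 1 pool, 49.3% (95% Wilson interval 46.5% to 52.2%), against 60.2% of other sites (59.1% to 61.3%), where 58.7% of all sites did. Another 411 passed in 2 to 4 pools and 138 in 5 or more, 11.97% (10.2% to 14.0%) of GΨG sites against 8.89% (8.25% to 9.59%) of other sites, beside 9.33% of all sites. All 11 flags were set for 13 GΨG sites, 1.13% (0.66% to 1.92%) of them, against 0.488% (0.35% to 0.68%) of other sites. These intervals overlap, and 0.579% of all sites had all flags. The intervals cover the count of sites only, and sites of 1 gene are not independent. Broadly passed sites had higher fractions and lay in more strongly expressed genes: the mean fraction was 8.99% over sites passed in 1 pool, 10.9% over those passed in 2 to 4 and 14.1% over those passed in 5 or more, and the median host gene level was 46.2, 73.8 and 129 TPM (transcript abundance scaled for length and for the size of the library). Other sites had the same order, with 12.8%, 15.9% and 22.8% and with 56.2, 94.5 and 179.6 TPM. The filter rests on a p-value and so on the number of reads, so passing is not independent of these values.

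The 13 sites with every flag set passed most often, and their 7 letters are given here because no sequence occurs among them more than 1 time.
Os04g0636900, chromosome 4, position 32391971, minus strand: ccGTGtc
Os05g0145600, chromosome 5, position 2622661, minus strand: cgGTGcc
Os11g0686100, chromosome 11, position 27760908, minus strand: gtGTGgc
Os12g0514600, chromosome 12, position 19928754, minus strand: tgGTGga
Os05g0303000, chromosome 5, position 13626735, plus strand: ggGTGcc
Os01g0356400, chromosome 1, position 14351706, minus strand: cgGTGac
Os10g0465800, chromosome 10, position 17184724, minus strand: agGTGca
Os08g0117300, chromosome 8, position 962980, minus strand: tgGTGgc
Os01g0797600, chromosome 1, position 33767197, plus strand: ccGTGgg
Os01g0662600, chromosome 1, position 27050233, minus strand: acGTGgg
Os01g0752300, chromosome 1, position 31560584, minus strand: agGTGgt
Os03g0599800, chromosome 3, position 22382419, minus strand: tcGTGag
Os02g0121300, chromosome 2, position 1116296, plus strand: gcGTGgg

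Positions are those of the files, on the IRGSP-1.0 assembly. The identifiers are not paired with names or functions in the files, so the genes are given by identifier only, and the place of each site relative to exons, introns and coding sequence was not analysed here. Over these 13 sites the mean fraction ran from 6.58% to 40.7%.

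The site in Os04g0636900 (gene span 32390377 to 32392487) had the highest mean, 40.7%, with an SD of 12.6 points over the 12 pools. Its fraction was 41.3% and 43.2% in plumule in the dark and the light, 58.3% and 66.6% in radicle in the dark and the light, 37.7% and 29.1% in seedling at 8 days and 2 weeks, 41.9% in straw, 32.7% in flag leaf and 24.8% in panicle at heading, and 49.4% in flag leaf, 37.2% in embryo and 26.6% in endosperm at 10 DAA. Radicle stood above every other tissue, and panicle and endosperm were lowest. The gene itself had 31.8 to 39.8 TPM in the 4 radicle libraries, among the lowest of its 24 values, which reached 81.4 TPM in straw.

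The site in Os05g0145600 varied less, with a mean of 35.5% (SD 5.81 points over 12 pools), the highest value of 49.0% in radicle in the dark and the lowest of 27.9% in endosperm. The sites in Os11g0686100, Os12g0514600 and Os05g0303000 averaged 25.7%, 24.3% and 21.1%, and none of the 3 left the band from 16.9% to 35.3% in any pool. At the other end the site in Os02g0121300 was modified at only 5.25% to 8.29% in all 12 pools, with a mean of 6.58% (SD 1.06 points). Os02g0121300 was the most strongly expressed host gene of any GΨG site, at 1273 to 3825 TPM in the 24 libraries, and it held 6 listed sites.

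**Figure D3:**
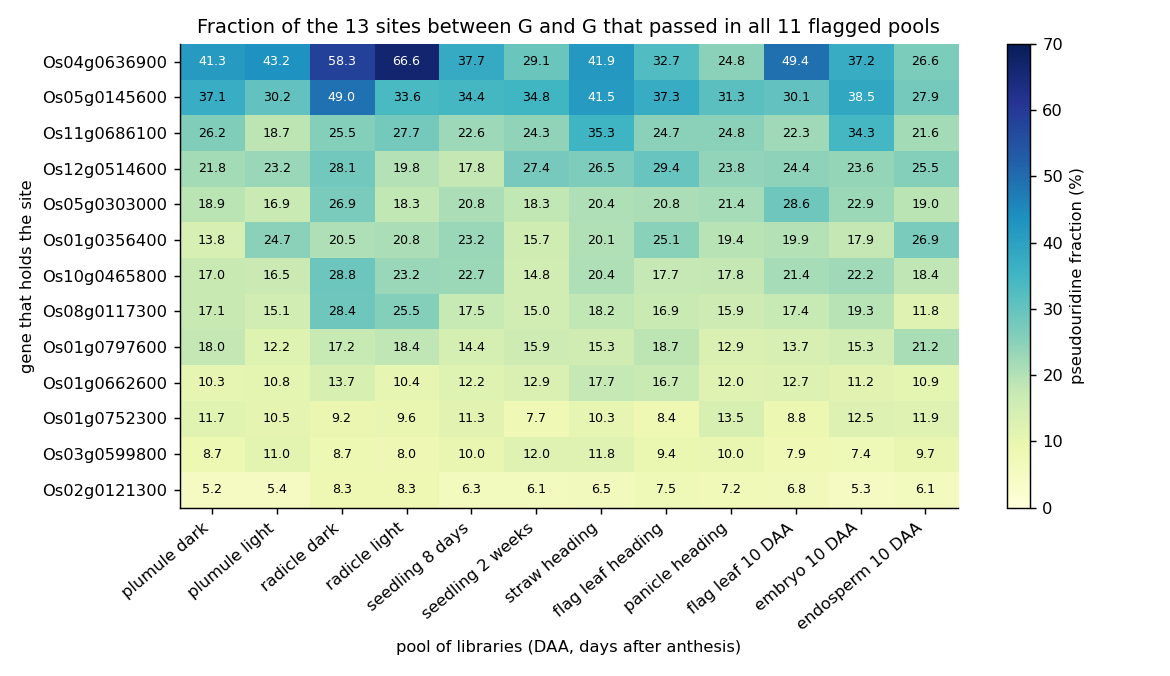
Ψ fraction (%, colour and printed value) of the 13 sites between G and G that passed in all 11 pools with a flag, with sites down the page by gene and pools across. The site in Os04g0636900 ranges from 24.8% to 66.6%, while the site in Os02g0121300 stays between 5.25% and 8.29%.

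Above these, 2 sites with fewer flags had a mean over 50% among those with a fraction in every pool and at least 5 flags. The site in Os05g0305700 (chromosome 5, position 13825323, minus strand, taGTGgc) averaged 53.1% with 7 flags, from 24.5% in plumule in the light to 70.0% in endosperm. The site in Os11g0175800 (chromosome 11, position 3778556, minus strand, ccGTGcc) averaged 51.5% with 5 flags and had the largest range of all broadly passed GΨG sites, from 0% in endosperm, where the gene was at 4.51 and 3.67 TPM and the site did not pass, to 71.1% in straw. Their host genes were weakly expressed, at 14.4 and 13.63 TPM on average. The site in Os07g0490300 (ggGTGgg) was steadier, at 36.0% to 53.6% with a mean of 42.9% and 10 flags, and that in Os01g0786900 (cgGTGgg) averaged 38.9% with 8 flags. These last 2 carry the 2 commonest sequences, whose sites averaged 8.94% and 8.30%.

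Of the other 3 sites with the largest range, 2 had their extremes in pools where they did not pass and the gene was near 0 TPM. The site in Os03g0693000 (ctGTGgc) had 45.0% in embryo and 59.5% in endosperm, against 2.52% in straw and 15.8% to 33.5% elsewhere, with its gene at 21.2 to 57.2 TPM in all 24 libraries, and it passed in embryo and endosperm but not in straw. The site in Os12g0515800 (tgGTGca) had 50.9% in panicle, 39.4% in endosperm and 32.1% in embryo but 0% in radicle and in plumule in the dark. It passed in none of these pools, and the gene Os12g0515800 stood at 3.60 TPM or less in each of their libraries. In the 5 pools where it passed, with the gene at 277 to 1135 TPM, the fraction was 8.47% to 12.5%. The site in Os03g0140400 (agGTGga) stood at 54.3% in both endosperm and radicle in the dark and at 0% in radicle in the light, again without passing and with the gene at 0.441 to 2.20 TPM there. In the 7 pools where it passed it lay between 20.8% and 33.9%. The number of reads behind such values, a lone 0 included, is unknown.

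The very highest means belonged mostly to sites that passed in few pools, as most GΨG sites did. Of the 24 GΨG sites with a mean of 40% or more, 18 had passed in at most 2 pools and 4 in at least 5. The median level of their host genes was 32.9 TPM. Of all 1153 GΨG sites, 35 passed in none of the 11 pools, 569 in 1 and 254 in 2, and 138 (11.97%) in 5 or more. The highest of the 24, in Os10g0403400 (ttGTGgt), had a fraction in 1 pool only, 97.9% in panicle. Its gene stood at 2.02 and 2.45 TPM in panicle and at 0.192 TPM on average over the 12 groups. The site in Os04g0446100 (ggGTGgg) had 88.0% in straw and 0% in the other 11 pools, with its gene at 1.48 TPM. By contrast the sites in Os08g0116500 and Os02g0601300 passed in 1 pool although they were high in most: Os08g0116500 (agGTGag) had 22.4% in endosperm and 38.1% to 68.3% in the other pools, in a gene at 1393 TPM, and Os02g0601300 (aaGTGag) had 46.4% to 100% in 11 pools and 0% in straw, in a gene at 697 TPM.

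The sites that passed in exactly 1 pool were most numerous in the radicle and the embryo, with 95 in radicle in the dark, 80 in radicle in the light and 79 in embryo, against 14 in seedling at 8 days and 25 in endosperm. In the radicle and the embryo other sites with 1 pass had similar shares. Radicle in the dark held 16.7% of those GΨG sites and 15.4% of those other sites. The shares in radicle in the light (14.1% of those GΨG sites) and embryo (13.9%) were also within 2 percentage points of those of other sites. The widest gaps were in endosperm, 4.39% of those GΨG sites against 7.67% of those other sites, and in straw, 9.49% against 6.46%. In seedling at 8 days the shares were 2.46% and 3.15%. A single pass did not mean that the fraction was highest there: 231 of the 569 sites had their highest fraction in the pool where they passed. For 266 of the 569 (46.7%) the host gene had its highest expression in that pool, among the pools with a flag. Plumule in the dark, which has no flag, was left out of this count. Neither the 231 nor the 266 was set against a count over other sites, so whether they are particular to GΨG sites was not tested. The share of such host genes ran from 10.0% for sites passed only in radicle in the light to 72.0% for those passed only in endosperm. In radicle in the light the 2 expression libraries correlated at only 0.914 across genes.

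Between tissues, the clearest difference was in the radicle. Among 1095 GΨG sites with both values, the fraction was 12.3% in radicle in the dark and 9.53% in plumule in the dark on average, and 690 sites were higher and 340 lower in radicle. In the light the means were 10.7% in radicle and 8.89% in plumule, with 613 sites higher and 411 lower in radicle. In radicle the means were 10.8% in the light and 12.4% in the dark (352 sites higher and 632 lower in the light). In plumule the means were 9.05% in the light and 9.54% in the dark. Expression library 1 of radicle in the light resembled endosperm, and whether this touches the pooled fractions of that group was not tested. Seedlings at 2 weeks stood below those at 8 days, 8.86% against 10.7%, with 380 sites higher and 685 lower at 2 weeks. Flag leaf at 10 DAA and at heading had almost equal means, 9.79% and 9.81%, and embryo and endosperm stood at 9.33% and 9.57%. No test was made of these differences because each pool is 1 value per site, and the other sites moved in the same direction in each of these pairs except flag leaf, where their means were 14.5% and 14.4%.

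Among the 138 broadly passed sites radicle in the dark was the highest pool. They averaged 17.0% in radicle in the dark and 12.4% to 14.9% in the other 11 pools, and 32 of the 138 had their highest fraction in radicle in the dark. Radicle in the dark exceeded plumule in the dark at 95 of 137 of these sites and was lower at 41, but in the light radicle was higher at 75 and lower at 62, and 5 pools outside the radicle had a higher mean than the 14.2% of radicle in the light. The 620 other sites passed as often also averaged most in radicle in the dark, 24.5% against 20.9% to 23.8% elsewhere. Of these other sites, 126 had their highest fraction in radicle in the dark. The flags that chose both sets include that of radicle in the dark, the pool with most passes. The median broadly passed GΨG site ranged over 12.9 points between its lowest and highest pool, against 16.8 points for those other sites. Relative to the level of the site the order turned, with a median coefficient of variation over pools of 28.7% for GΨG sites and 26.7% for other sites. Across sites, fractions in 2 pools were only loosely related: Spearman's rho over GΨG sites had a median of 0.35 over the 66 pairs of pools (0.49 over other sites) and was highest, 0.60, between the 2 flag leaf pools. Over the 138 sites the median was 0.67 and the highest value 0.83, between flag leaf at 10 DAA and straw. These are descriptions over sites that share libraries and depth.

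The letters beyond the flanking Gs were uneven and went with the fraction. At letter 2, just before the GTG, 60.4% of GΨG sites had G, near the 63.6% of other sites. A was held by 7.46% of GΨG sites and 6.10% of other sites. The mean fraction was 18.0% over the 86 sites with A at letter 2, against 13.1% with T, 9.59% with G and 7.70% with C. At letter 6, just after the GTG, G was held by 58.3% of GΨG sites and by 37.0% of other sites. Here the mean was 13.58% with C, 12.5% with A, 9.88% with G and 6.54% with T. Among the sites with T at letter 6 the 97 ending in GTGTA averaged 6.41%, with 1 site at 30% or more, and the 10 ending in GTGTT averaged 4.02%. By the base at letters 1 and 7 the means differed less and lay between 9.38% and 11.4%.

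Sites in which letters 2 and 6 were both G or C averaged 9.40% over the 12 pools, against 10.997% for the remaining GΨG sites, a difference of -1.60 ± 0.59 points (SD, n = 12 pools; lower in 12 of 12 pools; exact sign-flip permutation p = 0.000488, adjusted 0.000651). The result belongs to the mean alone. With the median in place of the mean the difference was 0.34 points in the other direction and passed (same exact test, adjusted p = 0.0151). Over sites whose 7 letters occur only 1 time in the list it was -0.35 points and did not pass.

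The 64 sites ending in the letters GTGAG stood out for their spread, a set that was chosen after the values were seen. They are 5.55% of the GΨG sites and averaged 16.6% over their site means, with a median of 11.5% and an SD of 17.0 points. In single pools their mean was above that of the remaining GΨG sites throughout, from 14.0% against 12.3% in radicle in the dark to 19.3% against 9.60% in panicle. GT is also the pair of letters with which most introns begin, and a gene whose transcript length equals its genomic span has no intron in the table. Of the 64 sites, 55 lay in genes whose length is shorter than their span and averaged 17.7%, with 11 site means at 30% or more, and 9 lay in genes of equal length and span and averaged 9.96%, with none at 30%. The medians of both were close, 11.4% in genes shorter than their span and 11.8% in those of equal length, so the medians did not follow the means. The part of unspliced RNA or of introns in these values was not tested. Without the 64 sites, the difference of GΨG from other sites was -4.73 points, negative in 12 of 12 pools.

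Along the gene, fewer GΨG sites than other sites lay near the 3′ end. With the gene span cut into 5 equal parts from the 5′ end to the 3′ end, the parts held 22.4%, 16.9%, 15.7%, 21.0% and 24.02% of GΨG sites, against 20.2%, 13.8%, 16.0%, 20.6% and 29.4% of other sites. The last part thus held 277 GΨG sites (95% Wilson interval 21.6% to 26.6%), a smaller share than among other sites (28.3% to 30.5%). Only 22 GΨG sites (1.91%) lay within 100 bases of the 3′ end, against 3.63% of other sites. The median GΨG site lay 1099 bases from the 5′ end and 895 bases from the 3′ end of a median span of 2799 bases, introns included. TΨG sites, by comparison, had 36.7% in the last part and 10.4% in the first, and GΨC sites had 24.4% in the last and 25.4% in the first. In genes whose transcript length equals their span, the 213 GΨG sites were most numerous in the second part, and the parts held 15.0%, 29.1%, 22.5%, 20.7% and 12.7% of them, against 15.2%, 18.7%, 23.2%, 26.1% and 16.8% of other sites.

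**Figure D4:**
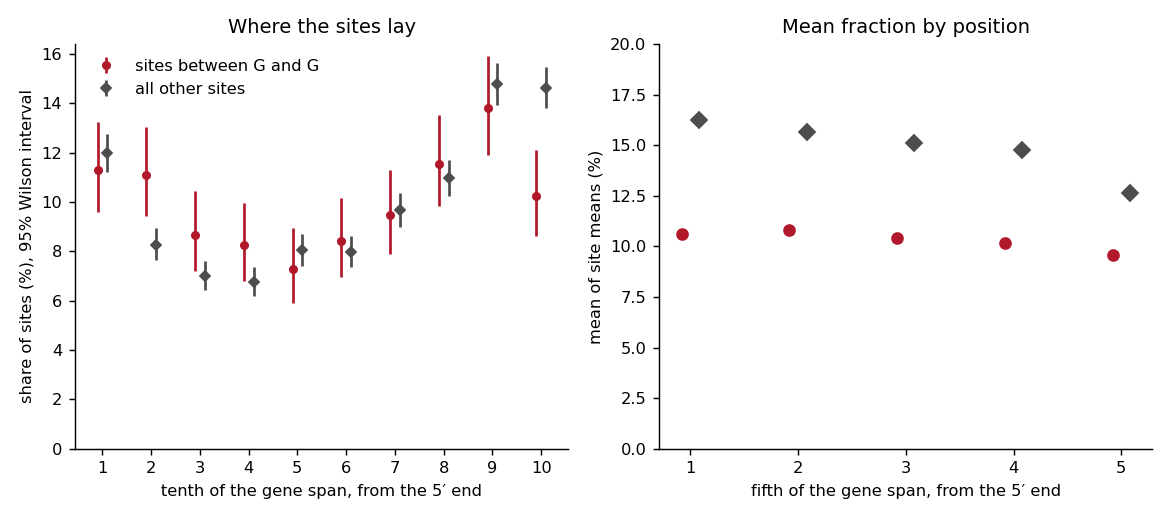
Left, share of sites (%) in each of 10 equal parts of the gene span from the 5′ end, with 95% Wilson intervals. Right, mean of site means (%) in each of 5 equal parts; sites between G and G lie between 9.58% and 10.8%, and all other sites stand at 16.2% in the first part and 12.7% in the last.

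The site means of GΨG sites averaged 10.6%, 10.8%, 10.4%, 10.1% and 9.58% from the first to the last part, whereas other sites stood at 16.2% in the first and 12.7% in the last. In the pools, sites in the last part averaged 9.24% and sites in the remaining 4 parts 10.4%, a difference of -1.13 ± 0.90 points (SD, n = 12 pools; lower in 11 of 12 pools; exact sign-flip permutation p = 0.00342, adjusted 0.00342). Radicle in the dark was the exception, where the last part was higher by 0.94 points. The difference did not pass with medians (-0.45 points), with the last of 10 parts in place of the last of 5 (-0.41 points) or over sites with 7 letters that occur only 1 time (-2.69 points). In genes whose length equals their span the order was the opposite, with a mean of site means of 11.3% in the last part and 8.30% to 10.2% in the others; this was not tested.

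The genes that hold GΨG sites were well expressed. Their median level over all libraries was 58.4 TPM, with quartiles of 25.4 and 146 TPM, against 43.1 TPM for the 3983 host genes of other sites only, and 5.44 TPM over all 37849 genes with Os identifiers. Counting 1 value per gene, the median of log2(TPM + 1) was higher in genes with a GΨG site by 0.17 ± 0.11 over the 12 pools (SD; higher in 11 of 12; exact sign-flip permutation p = 0.00146, adjusted 0.00176). Embryo was the exception, at -0.082. Genes with a GΨG site also held more listed sites of any kind, 2.21 on average against 1.46. Among genes with exactly 1 listed site the difference reversed to -0.15, lower in 11 of 12 pools (adjusted p = 0.00176), so the direction depends on how genes with several sites are treated.

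The lower fraction of GΨG sites was found at every level of expression. Sites were split into 4 equal groups by the mean TPM of their gene, at 29.3, 71.6 and 199.6 TPM. From the lowest to the highest group GΨG sites averaged 14.1%, 10.2%, 7.66% and 8.05% over the pools, against 18.9%, 15.6%, 13.1% and 10.9% for other sites. The differences were -4.85, -5.33, -5.47 and -2.81 points, each negative in 12 of 12 pools (exact sign-flip permutation p = 0.000488 and adjusted 0.000651 for each). Whether the gap differs between the 4 groups was not tested. The same held within genes that hold a GΨG site and another listed site, 512 in all and 483 to 506 in a pool. The difference was -4.55 points on average over pools, 8.95% for GΨG sites against 13.5% for the others.

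**Figure D5:**
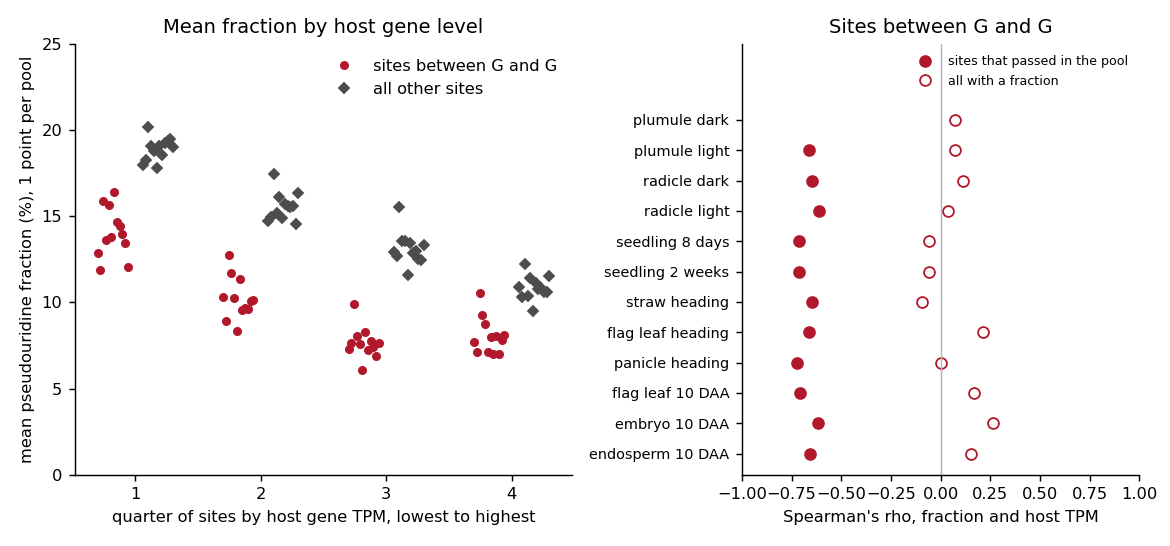
Left, mean Ψ fraction (%) in each of 4 equal groups of sites by the TPM of the host gene, lowest to highest, 1 point per pool, for sites between G and G and all other sites. Right, Spearman's rho between the fraction of a site between G and G and the TPM of its gene in the same pool, for sites that passed in that pool (-0.72 to -0.61, filled; no flag for plumule in the dark) and for all sites with a fraction (-0.10 to 0.26, open).

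Among GΨG sites that passed in a pool, fraction and host gene level ran in opposite directions, as they did among other sites. Spearman's rho across sites lay between -0.72 (panicle, 225 sites) and -0.61 (radicle in the light, 268 sites) in the 11 pools, a description of sites that share libraries. Among other sites that passed it lay between -0.63 (seedling at 8 days) and -0.55 (radicle in the dark). Over all GΨG sites with a fraction rho lay between -0.10 and 0.26, and over all other sites between 0.02 and 0.18. The GΨG sites listed at 0 enter only the values over all sites. Their genes had a median of 1.29 to 6.67 TPM in the same pool, against 49.2 to 68.6 TPM for GΨG sites above 0. Over GΨG sites above 0 rho lay between -0.46 and -0.37. Among other sites that passed, the lowest fraction was 0% in every pool with a flag. Over other sites above 0 rho lay between -0.40 and -0.33. The filter rests on a p-value and so on the number of reads, and its part in these relations was not tested. Within a broadly passed site, the fraction did not follow its gene: over the 12 pools the median rho of 136 sites was 0.06, with 77 positive and 58 negative. For 610 other sites passed as often the median was 0.08, with 350 positive and 258 negative.

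Most host genes held 1 GΨG site (959 genes), 80 held 2, 10 held 3, and Os10g0467600 (chromosome 10, 17258200 to 17261223, plus strand) held 4. 1 of its sites stood apart from the other 3 in fraction. The site at position 17258428 (caGTGgg) averaged 17.8%, from 8.76% in plumule in the light to 27.7% in flag leaf at 10 DAA. The site 48 bases further on (gcGTGgg) averaged 4.13%, and those at 17259570 (tgGTGta) and 17261058 (gtGTGcc) averaged 4.50% and 3.75%. The first was highest in all 12 pools. Only 15 pairs of neighbouring GΨG sites lay within 50 bases of each other.

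In the 5 most strongly expressed host genes the GΨG sites had means of 7.79% or less, below the 10.3% over all GΨG sites. This did not hold for all strongly expressed hosts, as the site in Os08g0116500 (1393 TPM) averaged 54.9%. Os12g0548700 averaged 2353 TPM, with 9527 and 9726 TPM in plumule in the dark but 5.19 and 3.67 TPM in straw, and its site (agGTGtg) stayed between 0% and 4.19%. The site in Os11g0660500 (ctGTGaa, 1816 TPM) averaged 3.14%, that in Os11g0582400 (ggGTGta, 1767 TPM) averaged 7.79%, and the 2 in Os11g0247300 (1595 TPM) averaged 1.61% and 4.31%. Os11g0582400 reached 15929 and 16192 TPM in embryo but was at 0 TPM in flag leaf at heading, where its site did not pass and was listed at 11.2%.

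The expression libraries bear on these values through the TPM only. Across genes, the 2 libraries of a group correlated at r = 0.986 to 0.994 (Pearson, log2(TPM + 1)) in 11 groups and at 0.914 in radicle in the light, whose library 1 correlated with an endosperm library at 0.896 and library 2 at 0.739. Without that pool the difference of GΨG from other sites was -4.47 points, negative in 11 of 11 pools. Reads per library, estimated from the steps between low TPM values, ran from 2109737 to 9006629. In plumule in the dark, plumule in the light and endosperm the 2 libraries differed by no more than sampling noise in these estimated reads. Chi-square per gene was 1.01, 0.996 and 1.02 there, and the mean of the 2 libraries counts as 1 sample. In the remaining groups chi-square per gene was little higher, 1.02 to 1.14, except in radicle in the light, where it was 8.01. The 3 genes Os01g0762500, Os10g0400200 and Os05g0499100, high in endosperm at 9167 to 11031 TPM, stood at 7986, 6846 and 7615 TPM in library 1 of radicle in the light and at 2.22, 1.71 and 3.84 TPM in library 2, so library 1 goes against its label in these genes. The files do not pair these identifiers with names, and the tissues were not checked further. Whether the pooled fractions of radicle in the light are touched in the same way was not tested. Fewer cells of a type and less RNA per cell cannot be told apart in such bulk samples.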

How the data were processed

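The study's methods state that BID-seq reads were aligned to the rice assembly IRGSP-1.0, which the submitters' notes also name. The authors added up the reads with and without a gap from all replicates of a tissue and converted the ratio, by a calibration curve, into a Ψ fraction. In the site table as deposited there is this fraction for 12 pools and, in 11 of them, a flag set by the authors' p-value-based filter. The names of 4 flag columns have words in place of digits, and they were read by the tissue they name. The deposited expression table gives TPM by the authors for 38978 genes in 24 libraries, 2 per group; its aligner and counting are not given in the sources used here, and its column names do not tell input from treated RNA. No column of per-sample values was left out.

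Sites were assigned to genes by span and strand with Python 3.11.15, NumPy 2.4.6, pandas 2.3.3 and SciPy 1.17.1, and figures were drawn with Matplotlib 3.10.9. Fractions are printed as percent, and missing ones were left out. In each pool the mean fraction, the share at 20% or more and the share passed were set against those of the other sites, and the differences were tested over pools with a two-sided exact sign-flip permutation test, adjusted by the Benjamini-Hochberg method over 12 tests with a threshold of 0.05. The test was checked on simulated data. Host genes were compared on log2(TPM + 1), taking the mean of the 2 libraries, and site groups by expression were cut at the quartiles of the mean TPM. A difference on this scale understates that of weakly expressed genes. Of the 37849 Os identifiers 1 matched the supplied RefSeq table, and no gene with a GΨG site did, so that table was not used.

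Named sites were the 5 with the highest mean and the 5 with the largest range among sites passed in at least 5 pools, the sites passed in all 11, and for each pool the site passed there alone with the highest fraction, of which the text gives those that add something; named genes were the holders of most sites and the 5 most strongly expressed hosts, and named sequences the 5 commonest and the 5 of highest mean. The rule takes 5 of the 13 sites passed in all pools; the other 8 were added after the values were seen. The groups of sites, the lists and the tests were chosen with earlier results of these data known. Of the 10 genes with 3 sites none is named. The alternatives tried were other site filters, medians, sites with 7 letters found 1 time, 1 value per gene, leaving out a pool or an expression library, another pseudocount and other groups by TPM.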

Additional observations from a re-analysis of the deposited data

Results flagged for a closer look

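In 3 comparisons a pool went against all the others, and none of these differences between pools was tested. Plumule in the light was the pool in which fewer GΨG sites than other sites passed the filter, by -0.50 percentage points, while the difference was positive in the other 10 pools. Embryo was the pool in which host genes of GΨG sites had the lower median of log2(TPM + 1), at -0.082, against positive values in the other 11. Radicle in the dark was the pool in which GΨG sites of the last of 5 parts of the gene had the higher mean, at 0.94 points, against negative values in the other 11.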

How the results depend on the processing

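The lower mean fraction of GΨG sites against all other, TΨG or GΨC sites and in each of the 4 expression groups, and their lower share at 20% or more against all other sites, kept their direction over pools and stayed past the threshold under the alternatives run for each, but sizes moved. Over sites passed in the pool the mean differences were -8.16 (other), -9.69 (TΨG) and -7.24 (GΨC) points and the difference in share -24.5 points. Over sites with 7 letters found 1 time they were -7.51 against other and -6.90 against GΨC sites. Medians gave -2.82 against other sites, and a minimum of 50% in place of 20% gave -2.80 points for the share. Fractions above 0 gave -9.37 in expression group 1 and -4.22 in group 4. Within genes, chosen after seeing the data, the difference from TΨG sites was -2.82. Leaving out expression library 1 or 2 gave 0.16 and 0.19 for host gene expression. It reversed to -0.15 among genes with 1 listed site, an alternative chosen after seeing the data. The share that passed no longer met the threshold over sites with 7 letters found 1 time (4.95 points) or, chosen after seeing the data, in the lowest expression group (1.37 points). The last of 5 parts no longer differed past the threshold over sites with 7 letters found 1 time (-2.69 points), with medians (-0.45) or with the last of 10 parts (-0.41). With G or C at letters 2 and 6 the difference was -0.35 over sites with 7 letters found 1 time, not past the threshold. With medians it reversed to 0.34, past the threshold. The causes were not tested. No paired analysis was possible because fractions were pooled over replicates and each test compares 2 sets of sites within the same pool. Depth behind each fraction is unknown, so fractions in weakly expressed genes, lone values of 0 and 100 included, have no stated precision.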
